A study of Mus musculus with 8 samples.

Results

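The collagen chain genes of the mouse were taken as the protein-coding genes whose symbol consists of Col, a collagen type, the letter a and a chain number, and 44 of the 22880 counted gene IDs met this rule. Their RNA was measured in the soleus, a calf muscle rich in slow fibres, from 4 control mice (Dnm2 +/+) and 4 Dnm2 +/K562E mice. All were males of 2 months on a C57BL/6 background, given as the J substrain in the study's methods. Dnm2 encodes dynamin 2, a GTPase that severs membrane necks. In humans the K562E mutation is associated with a dominant intermediate form of Charcot-Marie-Tooth neuropathy. The study found no definitive neuropathy in the heterozygous mice and describes a primary myopathy-like phenotype. The mutant allele was introduced at the endogenous locus by homologous recombination, is carried by all cells of the heterozygous mouse and keeps a loxP site in an intron, and the controls were littermates or mice of the same age. The comparison between genotypes asks how the mutation goes together with the composition of the muscle's transcripts. Reads counted on genes totalled between 33407430 and 48832814 per mouse. Dnm2 itself was counted at 68.8, 68.5, 59.2 and 68.7 CPM (counts normalized by library size and TMM factor) in controls 1 to 4 and at 74.2, 76.1, 73.2 and 70.3 CPM in Dnm2 +/K562E mice 1 to 4. The mutant values lay above the controls, but the log2 fold change of 0.15 (SE 0.07, adjusted p = 0.0909) was not called, and counts per gene cannot show a change of amino acid.

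Collagens are proteins of the extracellular matrix in which 3 chains wind into a rod, which requires a glycine in each successive group of 3 residues of the helical stretches. Fibrillar collagens assemble into the cross-banded fibrils of tendon and of the connective tissue sheaths of muscle. Fibril-associated collagens with interrupted helices (FACIT) bind to the surface of such fibrils, collagen VI forms beaded microfilaments close to the muscle fibre, collagen IV forms the network of the basement membrane around each fibre and capillary, and transmembrane collagens are anchored in the plasma membrane. In muscle the fibrillar chains are made largely by fibroblasts of the interstitium, and the counts of a whole muscle mix all of these cells.

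The repeat that defines the family can be read in the coding sequence. Shown are exons of 54 bases from a fibrillar, a beaded, a FACIT and a basement membrane chain, to compare the same repeat in chains that were called between the genotypes and in Col4a1, which was not. Each is written 5′ to 3′ on the coding strand, in frame, with the glycine codons in capitals (GENCODE M21, GRCm38).
Col1a1 (chr11:94939904-94939957, plus strand): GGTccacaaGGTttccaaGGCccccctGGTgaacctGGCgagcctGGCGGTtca
Col6a1 (chr10:76719623-76719676, minus strand): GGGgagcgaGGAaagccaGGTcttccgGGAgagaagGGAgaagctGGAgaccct
Col12a1 (chr9:79614349-79614402, minus strand): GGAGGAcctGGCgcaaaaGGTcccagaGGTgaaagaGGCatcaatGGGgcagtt
Col4a1 (chr8:11245211-11245264, minus strand): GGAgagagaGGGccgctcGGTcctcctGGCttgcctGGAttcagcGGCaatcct
All of them open with glycine and repeat it in each successive triplet of codons. The classes differ in how long the repeat runs without a break. The longest unbroken run of glycine triplets held 216 to 344 triplets in the 11 fibrillar chains, with a median of 338. It held 30 to 75 triplets in the 9 basement membrane chains, 32 to 113 in the 9 FACIT chains, 37 to 87 in the 6 beaded chains and 40 to 56 in the 4 transmembrane chains. Exons of 54 bases made up 21 of the 51 coding exons of Col1a1 and 2 of the 52 coding exons of Col4a1.

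Most measured collagen chain genes were more abundant in the muscles of Dnm2 +/K562E mice. Of the 44 members, 38 passed the filter on low counts and were tested, 23 rose, 1 fell and 14 were not called. The call required an adjusted p under 0.05 in edgeR's quasi-likelihood test with Benjamini-Hochberg adjustment over all 14001 tested genes, together with a log2 fold change of 0.58 or more, up or down. Among all tested genes 12.9% rose and 7.85% fell. All 4 mutant mice lay above all 4 controls for 23 of the 38 tested chains, against 20.6% of all tested genes, and below them for 1 of the 38, Col6a6, against 20.5% of all tested genes. These were the chains that rose and the chain that fell. The counts include Col10a1, which passed the filter only through the mutant mice, and with at least 10 counts required in every mouse 22 of 36 chains rose. The median log2 fold change was 0.88 over the 38 collagen chain genes and 0.0074 over all tested genes. Because a bulk sample was sequenced, more or fewer cells of a type and more or less RNA per cell cannot be told apart for any of these genes.

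The summed collagen signal shows the size of the difference. Collagen chain genes took 0.398, 0.3795, 0.418 and 0.5403% of all counts in controls 1 to 4 and 1.06, 0.891, 0.826 and 0.788% in Dnm2 +/K562E mice 1 to 4, so that the lowest mutant was above the highest control. After normalization the sum was 4658 ± 676 CPM in controls and 8269.9 ± 925 CPM in Dnm2 +/K562E mice (SD, n = 4 each). Summed by class, fibrillar chains held 2392 ± 469.5 CPM in controls and 4919 ± 658 CPM in Dnm2 +/K562E mice, and basement membrane chains held 1414 ± 231 CPM in controls and 1497 ± 90.9 CPM in Dnm2 +/K562E mice. Col6a1 to Col6a6 together held 562.2 ± 109 CPM in controls and 1158 ± 165 CPM in Dnm2 +/K562E mice. The FACIT sum was 222 ± 28.1 CPM in controls and 482 ± 73.7 CPM in Dnm2 +/K562E mice, and the transmembrane chains, which are scarce in muscle, summed to 12.5 ± 0.637 CPM in controls and 26.8 ± 2.15 CPM in Dnm2 +/K562E mice.

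**Figure D1:**
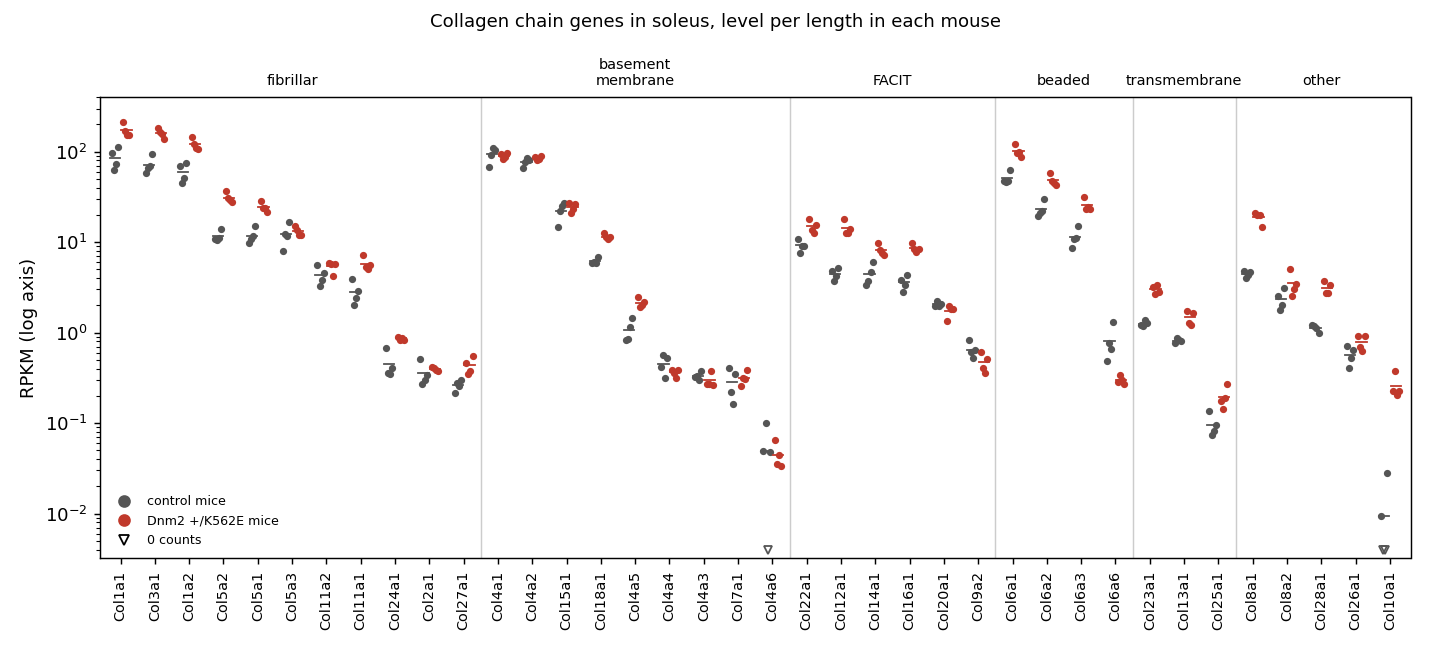
Level of each of the 38 tested collagen chain genes in each mouse, as normalized CPM per kilobase of annotated exon (RPKM) on a log axis, ordered within each class by mean level. Points are mice, short lines are group means, and open triangles mark mice with 0 counts. The 4 mutant mice lie above the 4 controls for 8 of the 11 fibrillar genes and for 2 of the 9 basement membrane genes, against 20.6% of all tested genes.

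Levels of different genes are compared as RPKM, which divides the normalized CPM by the length of all annotated exons of the gene. In controls the highest mean RPKM were those of Col4a1 (93.7), Col1a1 (86.2), Col4a2 (77.3), Col3a1 (72.2) and Col1a2 (60.1). In Dnm2 +/K562E mice Col1a1, Col3a1 and Col1a2 stood first, ahead of Col6a1, Col4a1 and Col4a2. Adjacent means of these 5 genes in controls differed by less than the larger SD of the pair, and the order depends on the length used, since annotated exons of some chains reach far beyond the coding sequence. Per kilobase of coding sequence, a measure added after the data were seen, Col1a2 was the most abundant chain in both genotypes, at 182 and 364 CPM per kilobase in controls and mutants, followed by Col3a1 at 161 and 357. In this measure Col4a1 followed in controls at 139.7 CPM per kilobase.

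Among the fibrillar chains 8 of 11 rose, against 12.9% of all tested genes. All 11 were tested, and the median log2 fold change was 1.00. Col1a1 (ENSMUSG00000001506, GRCm38 chr11:94936224-94953042), a chain of collagen I, the main fibril protein of tendon and sheaths, had RPKM of 97.5, 62.8, 73.2 and 111 in controls 1 to 4 and 213, 168, 154 and 154 in Dnm2 +/K562E mice 1 to 4. Its partner chain Col1a2 had 70.3, 44.7, 50.96 and 74.6 in controls and 145, 121, 109 and 107 in mutants. For both, control 4 was the highest control, mutant 1 was the highest of all mice, and the genotypes did not overlap. The mean RPKM of Col1a1 was 86.2 ± 22.2 in controls and 172 ± 28.1 in Dnm2 +/K562E mice (SD, n = 4 each), a log2 fold change of 1.00 (SE 0.17, adjusted p = 8.53e-04), and that of Col1a2 gave 1.00 (SE 0.16, adjusted p = 5.76e-04). Col3a1 (ENSMUSG00000026043, chr1:45311538-45349706), which forms thin, pliable fibrils, had RPKM of 57.996, 66.6, 70.01 and 94.05 in controls and 182, 164, 157 and 137 in mutants. Its log2 fold change was 1.15 (SE 0.14, adjusted p = 8.69e-05), and again no mutant fell into the range of the controls.

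Col5a2, a chain of collagen V, which sits in the core of collagen I fibrils and regulates their diameter, had the largest log2 fold change of the fibrillar class. Its RPKM was 10.9, 10.5, 11.2 and 13.9 in controls 1 to 4 and 36.7, 30.7, 29.3 and 27.5 in mutants 1 to 4, a log2 fold change of 1.41 (SE 0.11, adjusted p = 4.00e-06). The genotypes did not overlap. Its partner Col5a1 rose by 1.05 on the log2 scale (adjusted p = 9.75e-05), whereas Col5a3, the other chain of this type, was not called, with mean RPKM of 12.2 ± 3.55 in controls and 13.1 ± 1.61 in Dnm2 +/K562E mice and a 95% interval of its log2 fold change of -0.28 to 0.51. Collagen XI is the counterpart of collagen V in cartilage, and Col11a1 rose by 1.03 on the log2 scale (adjusted p = 0.00117). Its partner Col11a2 had a log2 fold change of 0.32 and was not called. Col24a1 and Col27a1, minor fibrillar chains with mean RPKM under 1 in both genotypes, rose by 0.95 and 0.72 on the log2 scale. Col2a1, the main fibrillar chain of cartilage, had mean RPKM of 0.357 ± 0.1102 in controls and 0.396 ± 0.0194 in Dnm2 +/K562E mice and was not called.

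**Figure D2:**
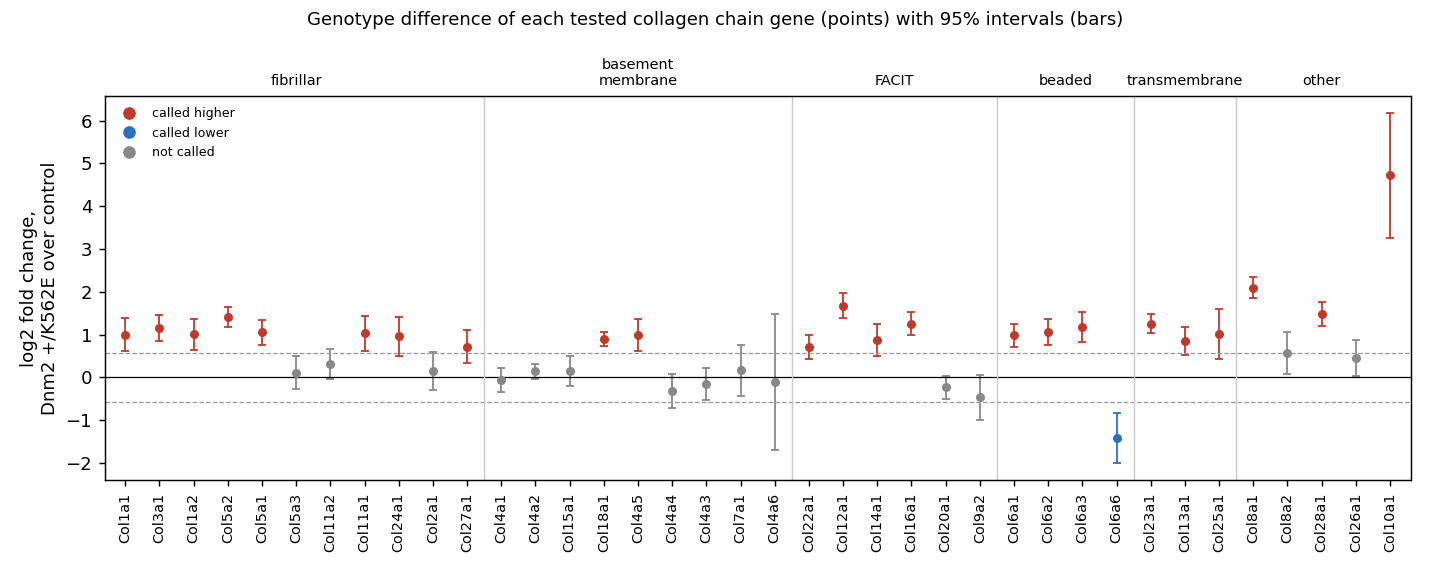
Log2 fold change of each tested collagen chain gene, Dnm2 +/K562E over control, with its 95% interval, in the same order as the levels by mouse. Dashed lines mark the fold threshold of 0.58 in either direction, and colours give the call. Called higher are 8 of the 11 fibrillar genes and 2 of the 9 basement membrane genes, against 12.9% of all tested genes. Intervals of the other 7 basement membrane genes include 0.

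Collagen VI, whose chains are mutated in muscular dystrophies, split into 3 genes that rose and 1 that fell among 4 tested. Of all tested genes, 12.9% rose and 7.85% fell. The median log2 fold change of the class was 1.02. Col6a1 had RPKM of 47.7, 46.8, 47.03 and 63.5 in controls 1 to 4 and 121, 97.2, 98.1 and 88.3 in mutants 1 to 4. Col6a2 had 19.5, 21.1, 21.99 and 30.1 in controls and 58.3, 47.2, 45.01 and 42.99 in mutants, and Col6a3 had 8.704, 10.9, 11.1 and 15.2 in controls and 31.9, 23.4, 24.7 and 23.3 in mutants. These 3 chains make up the common form of the protein, and for each of them control 4 was the highest control and mutant 1 the highest mutant, without overlap. Their log2 fold changes were 0.98 (SE 0.12, adjusted p = 9.05e-05) for Col6a1, 1.06 (SE 0.14, adjusted p = 1.35e-04) for Col6a2 and 1.17 (SE 0.16, adjusted p = 1.63e-04) for Col6a3. Col6a6 (ENSMUSG00000043719, chr9:105687809-105828160), an alternative to Col6a3 in the molecule, had RPKM of 0.484, 0.765, 0.655 and 1.298 in controls and 0.284, 0.342, 0.302 and 0.268 in mutants. Control 4 was again the highest control, but every mutant was below every control, and the log2 fold change was -1.41 (SE 0.27, adjusted p = 0.00148). Of the 31-base stretches in its transcripts, 4.69% also occur in Col6a5. Col6a4 and Col6a5 were not tested, with 2 to 6 counts and 3 to 23 counts per mouse.

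FACIT chains rose in 4 of the 6 tested members, against 12.9% of all tested genes, and the median log2 fold change was 0.79. Col12a1, found on fibrils of tendon and of the muscle's connective tissue, had RPKM of 4.74, 3.71, 4.18 and 5.24 in controls 1 to 4 and 18.2, 12.5, 12.6 and 14.01 in mutants 1 to 4. The lowest mutant was far above the highest control, and the log2 fold change of 1.68 (SE 0.14, adjusted p = 5.68e-06) was the largest of the class. Col22a1, a collagen of the junction between muscle and tendon, had 10.97, 7.53, 9.17 and 9.13 in controls and 18.2, 13.6, 12.7 and 15.5 in mutants. Col14a1, made by fibroblasts, had 3.34, 3.73, 4.71 and 6.07 in controls and 9.71, 8.24, 7.59 and 7.12 in mutants. Neither gene overlapped between the genotypes, and they rose by 0.70 (adjusted p = 0.00125) and 0.87 (adjusted p = 0.00179) on the log2 scale. Col16a1 rose by 1.26 on the same scale (adjusted p = 2.13e-05). Col20a1 and Col9a2 had log2 fold changes of -0.24 and -0.47 and were not called. Col9a1, Col9a3 and Col19a1 were under the filter, with at most 38 counts in any mouse, and the 38 counts of Col9a1 in control 4 stood against 0 to 8 in the other mice.

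Basement membrane chains gave 2 calls among 9 tested members, both higher, and a median log2 fold change of 0.14. The 2 of 9 stand against 12.9% of all tested genes, too few genes to read a difference from. Col4a1 (ENSMUSG00000031502, chr8:11198423-11312826), which with Col4a2 forms the collagen IV network of nearly all basement membranes, had RPKM of 67.95, 92.9, 111 and 103 in controls 1 to 4 and 93.5, 82.8, 87.1 and 96.7 in mutants 1 to 4. Col4a2 had 65.5, 76.7, 85.4 and 81.6 in controls and 86.7, 81.5, 83.9 and 88.9 in mutants. The genotypes overlapped in both genes, and control 1 was the lowest of all mice. The log2 fold change of Col4a1 was -0.06 with a 95% interval of -0.34 to 0.23, and that of Col4a2 was 0.14 with an interval of -0.04 to 0.32. Both intervals lie under the fold threshold of 0.58. The sign of the Col4a1 value is not stable: it was 0.15 when libraries were scaled by size alone, a scaling that moves the median of all genes to 0.22, and 0.03 without control 3.

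Col4a5, on the X chromosome, was the only collagen IV chain called among the 6. It had RPKM of 0.825, 0.853, 1.14 and 1.46 in controls and 2.45, 1.903, 2.01 and 2.18 in mutants, without overlap, and a log2 fold change of 0.99 (SE 0.17, adjusted p = 9.05e-04). Its level was low beside that of Col4a1 in every mouse. Col4a3, Col4a4 and Col4a6, chains of specialized basement membranes such as that of the kidney glomerulus, had mean RPKM under 0.5 in both genotypes and were not called. The multiplexins Col15a1 and Col18a1 lie in the zone where the basement membrane meets the matrix, and only the latter was called. Col15a1 had RPKM of 14.6, 21.9, 25.02 and 26.8 in controls and 27.2, 20.8, 23.2 and 26.7 in mutants, overlapping between genotypes, and its log2 fold change was 0.15 with an interval of -0.21 to 0.51. Col18a1, whose cleaved end is known as endostatin, had 5.96, 6.03, 5.96 and 6.88 in controls and 12.6, 11.3, 10.7 and 11.4 in mutants and rose on the log2 scale by 0.89 (SE 0.07, adjusted p = 6.01e-06). Col7a1, the collagen of anchoring fibrils in skin, had a log2 fold change of 0.16 and was not called.

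All 3 transmembrane chains that could be tested rose, with a median log2 fold change of 1.01. Of all tested genes 12.9% rose, and the class holds few genes to set against that share. Col23a1 had RPKM of 1.205, 1.18, 1.39 and 1.27 in controls 1 to 4 and 3.16, 2.67, 3.35 and 2.81 in mutants 1 to 4, a log2 fold change of 1.25 (SE 0.10, adjusted p = 5.08e-06). Col13a1, a collagen of the neuromuscular junction, had 0.776, 0.864, 0.827 and 0.806 in controls and 1.72, 1.28, 1.23 and 1.67 in mutants, a log2 fold change of 0.85 (SE 0.14, adjusted p = 8.08e-04). Col25a1, which takes part in motor innervation of muscle, had 0.136, 0.0734, 0.0813 and 0.0955 in controls and 0.176, 0.144, 0.1897 and 0.267 in mutants, and rose on the log2 scale by 1.01 (SE 0.26, adjusted p = 0.00983). None of them overlapped between the genotypes, although mutant 2 came close to control 1 for Col25a1. Col17a1, a collagen of the hemidesmosomes of skin, was not tested, with 1 to 25 counts per mouse.

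Of the remaining 5 chains, Col8a1 and Col28a1 rose, Col8a2 and Col26a1 were not called, and Col10a1 rose but was tested only because of its counts in mutants. Col8a1, a short-chain network collagen of vessel walls and of remodelled tissue, had RPKM of 4.796, 4.03, 4.31 and 4.68 in controls 1 to 4 and 21.1, 19.8, 20.2 and 14.8 in mutants 1 to 4. The ranges were far apart, and the log2 fold change was 2.09 (SE 0.11, adjusted p = 5.98e-07). Its partner chain Col8a2 had 2.51, 1.79, 2.04 and 3.14 in controls and 5.06, 2.56, 3.02 and 3.46 in mutants, with overlap, and its log2 fold change of 0.57 (SE 0.22, adjusted p = 0.0548) missed both thresholds. Col28a1, a collagen of peripheral nerve, had 1.203, 1.19, 1.12 and 0.991 in controls and 3.72, 2.73, 2.76 and 3.37 in mutants and rose on the log2 scale by 1.48 (SE 0.12, adjusted p = 6.79e-06). Col26a1 had a log2 fold change of 0.46 and was not called.

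Col10a1 (ENSMUSG00000039462, chr10:34389981-34397085), known as the collagen of hypertrophic cartilage, had the highest fitted fold among the tested chains, from very few reads. It was counted 1, 0, 0 and 3 times in controls 1 to 4 and 26, 51, 27 and 26 times in mutants 1 to 4. It passed the filter only through the mutant mice, so that it had to differ in order to be tested. Summed over mice and scaled by library, the ratio was 29.9, with an exact 95% counting interval of 11.4 to 111, which covers counting error only. The fitted log2 fold change was 4.72 (SE 0.66, adjusted p = 2.07e-04), and it was 6.05 without control 4. Its exons overlap those of Nt5dc1 on the other strand by 18 bases. Among markers of cartilage, Matn1 and Snorc had 0 counts in all 8 mice. Matn3 had means of 0.513 CPM in controls and 0.993 CPM in mutants, with a 95% interval of its log2 fold change of -0.28 to 2.24, and Matn3, Sox9, Acan and Hapln1 were not called. The part of cartilage cells in the Col10a1 counts was not tested.

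Promoters are shown for an abundant fibrillar chain that rose and for the chain of the highest fitted fold. Both windows are the 250 bases before the annotated start, from RefSeq on GRCm38.p6, written 5′ to 3′ on the plus strand, which is the strand of both genes. Capitals mark TATAAA.
Col3a1 (chr1:45311288-45311537): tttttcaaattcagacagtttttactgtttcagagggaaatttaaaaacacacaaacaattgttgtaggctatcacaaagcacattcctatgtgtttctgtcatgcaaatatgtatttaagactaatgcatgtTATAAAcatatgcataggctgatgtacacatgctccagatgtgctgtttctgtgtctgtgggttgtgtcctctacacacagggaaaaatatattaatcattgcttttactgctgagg
Col10a1 (chr10:34389731-34389980): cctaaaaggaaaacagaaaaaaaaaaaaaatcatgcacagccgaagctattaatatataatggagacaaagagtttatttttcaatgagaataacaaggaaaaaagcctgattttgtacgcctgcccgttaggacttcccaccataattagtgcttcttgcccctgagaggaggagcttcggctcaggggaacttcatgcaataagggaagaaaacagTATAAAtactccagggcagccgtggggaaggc
TATAAA begins 117 bases before the start of Col3a1 and 32 bases before that of Col10a1. CCAAT, another promoter motif, was searched as well, both on either strand, with ATTGG and TTTATA as the reverse complements. CCAAT occurred in 34.2% of 38 windows of 35 matched collagen chain genes and in 33.8% of all 32851 windows. TATAAA occurred in 13.2% of the collagen windows and in 12.4% of all windows. The motifs share no letters in overlap, and a match describes the letters only.

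**Figure D3:**
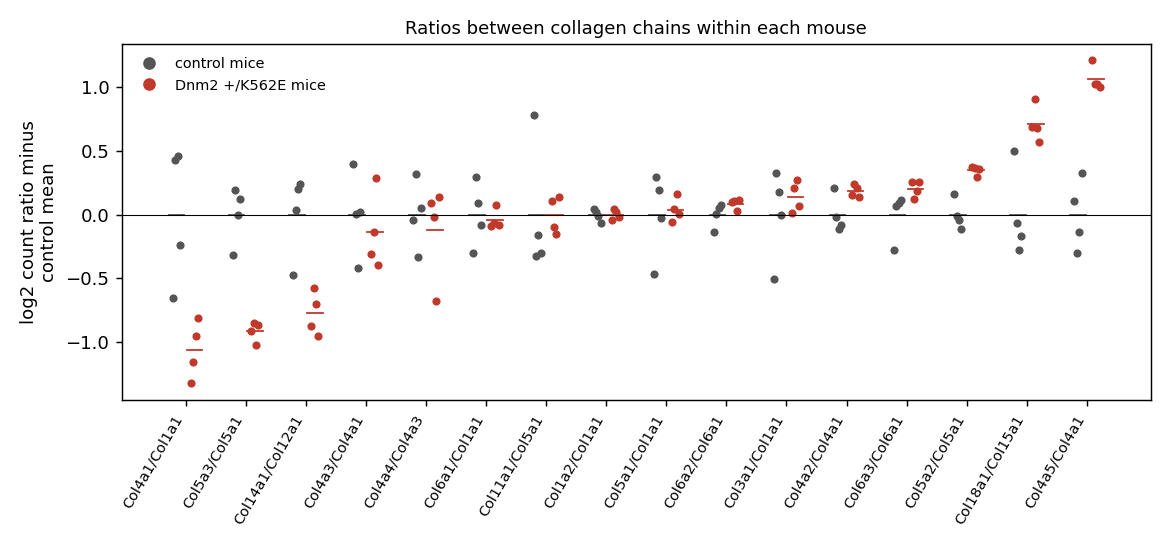
Log2 ratio of the counts of pairs of collagen chains within each mouse, minus the control mean of that ratio. Points are mice and short lines are group means. Col1a2/Col1a1 differs by 0.0006 between the genotypes, whereas Col4a5/Col4a1 is higher by 1.06 and Col4a1/Col1a1 lower, at -1.06.

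Whether chains of a family moved by the same amount was examined as count ratios within each mouse, which need no scaling between mice. The log2 ratio of Col1a2 to Col1a1, which occur together in the collagen I molecule, was 0.45, 0.43, 0.40 and 0.34 in controls 1 to 4 and 0.36, 0.45, 0.42 and 0.39 in mutants 1 to 4. The means were 0.41 in both genotypes. For Col6a2 to Col6a1 the difference between the genotype means was 0.09, with overlap. Other ratios separated the genotypes completely. Col5a3 to Col5a1 was -0.62, -0.11, -0.31 and -0.18 in controls and -1.22, -1.15, -1.33 and -1.18 in mutants, a difference of -0.91. Col4a1 to Col1a1, a basement membrane chain against a fibrillar chain, was -0.33, 0.75, 0.78 and 0.08 in controls and had a mean of -0.74 ± 0.23 (SD, n = 4) in mutants, a difference of -1.06. Every mutant lay below every control in both of these ratios. The same complete separation held for Col14a1 to Col12a1 (-0.77), Col18a1 to Col15a1 (0.71), Col4a5 to Col4a1 (1.06), Col5a2 to Col5a1 (0.35) and Col6a3 to Col6a1 (0.21). These 7 of the 16 ratios reached an exact two-sided permutation p of 0.0286, the smallest that 4 against 4 mice allow. After Benjamini-Hochberg adjustment over the 16 ratios their permutation p was 0.0653, and none passed 0.05. The ratios were chosen with earlier results of these data known.

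Several chains are neighbours in the genome, and the calls of neighbours varied. Col3a1 and Col5a2 lie tail to tail on chromosome 1 with 24614 bases between them, and both rose. Col6a1 and Col6a2 lie in the same direction on chromosome 10, and both rose. Col4a1 and Col4a2 lie head to head on chromosome 8, with annotated ends that overlap by 22 bases, and neither was called. Col4a5 and Col4a6 lie head to head on the X chromosome with 1308 bases between them, and Col4a5 rose while Col4a6, with 0 to 27 counts per mouse, was not called. Col6a6 is followed on chromosome 9 by Col6a5 and Col6a4, which were too scarce to test.

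Genes that process collagen were examined by lists. Of 19 genes of procollagen modification and folding, 7 rose and none fell, against 12.9% and 7.85% of all tested genes, which is also the background for the lists that follow, and the median log2 fold change was 0.35. P4ha3, a subunit of a prolyl 4-hydroxylase, rose on the log2 scale by 2.17 (SE 0.29, adjusted p = 1.50e-04), from 0.841 to 3.75 CPM. The prolyl 3-hydroxylases P3h2 and P3h3, the lysyl hydroxylase Plod2 and the chaperone Fkbp10 rose on that scale by 1.08, 1.05, 1.04 and 1.07. Those called were not the most abundant members: P4hb, the list's most abundant gene, reached 0.30 on the log2 scale (adjusted p = 0.00201) and Serpinh1, the collagen chaperone HSP47, 0.37 (adjusted p = 0.0437), both under the fold threshold.

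Outside the cell, propeptides are removed and fibrils assembled, and 9 of 11 genes of this list rose and none fell, with a median log2 fold change of 0.84. Adamts3, a procollagen N-proteinase, rose on the log2 scale by 2.37 (SE 0.20, adjusted p = 7.40e-06). The procollagen C-proteinase Bmp1 and its enhancer Pcolce rose by 0.84 and 1.03 (log2), and fibronectin (Fn1), a scaffold for fibril assembly, rose by 1.21 (log2), from 542 to 1254 CPM. All 5 crosslinking enzymes rose, with a median of 1.26. Loxl2, the most abundant of them, had 55.1, 53.5, 56.5 and 69.9 CPM in controls 1 to 4 and 210.3, 188, 181 and 179.6 CPM in mutants 1 to 4, a log2 fold change of 1.69 (SE 0.09, adjusted p = 6.94e-07). Lox, Loxl1, Loxl3 and Loxl4 rose by 1.26, 1.20, 0.86 and 1.86 on the log2 scale.

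Collagen receptors gave 5 genes that rose among 9, and none that fell, against 12.9% and 7.85% of all tested genes, with a median log2 fold change of 0.64. The integrin chains Itga10 and Itga11 rose by log2 values of 1.38 and 0.96, the discoidin receptor Ddr2 by 0.64, the leukocyte receptor Lair1 also rose, and the endocytic receptor Mrc2 rose by 1.22. The integrin chain Itga1 was below the controls in every mutant, as were 20.5% of all tested genes. Its log2 fold change of -0.28 (adjusted p = 0.00826) was short of the fold threshold. That value depends on the scaling, since library size alone moves the median of all genes to 0.22. Itgb1, the list's most abundant gene, and Ddr1 were above the controls in every mutant, as were 20.6% of all tested genes. Their log2 values of 0.53 (adjusted p = 8.43e-05) and 0.55 (adjusted p = 0.00225) also fell short of the fold threshold. Of the 7 genes of degradation, 5 were tested, 4 rose and 1 fell, with a median of 1.06. Mmp2, a gelatinase, rose on the log2 scale by 1.44 (SE 0.13, adjusted p = 1.05e-05), and Mmp14, which activates it, by 1.06. The protease genes Ctsk and Fap rose by 1.06 and 0.76 on the log2 scale. Mmp9, the other gelatinase, fell, with a log2 fold change of -1.67 (SE 0.41, adjusted p = 0.00709). Mmp8 and Mmp13, the interstitial collagenases of this list, were under the filter, with means of 0.101 to 0.1704 CPM and 0.117 to 0.159 CPM between controls and mutants.

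**Figure D4:**
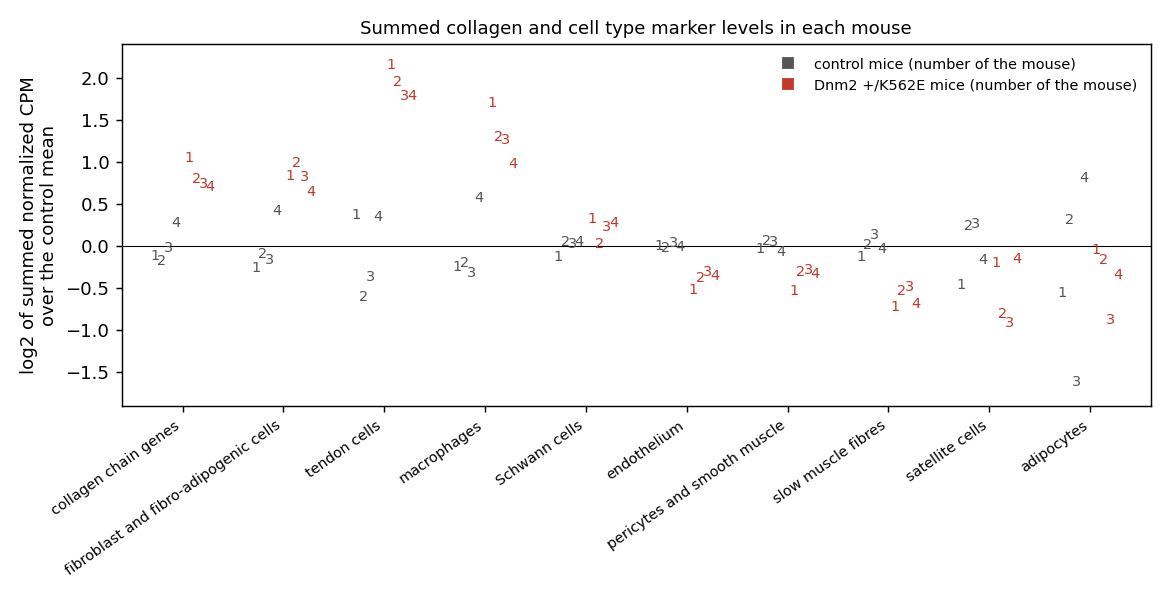
Summed normalized CPM of the collagen chain genes and of 9 lists of cell type markers in each mouse, as log2 of the ratio to the control mean. The digits are the numbers of the mice within each genotype. The collagen, fibroblast, tendon and macrophage sums of the 4 mutant mice lie above those of the 4 controls, and the endothelial, pericyte and slow fibre sums lie below. The slow fibre list, led by Acta1, also holds general muscle fibre genes. Thbs4 carries most of the difference in the tendon sum.

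Some lists of markers for cells that a whole soleus can contain differed between the genotypes together with the collagen chain genes. Markers of fibroblasts and fibro-adipogenic cells rose in 7 of 8 genes, against 12.9% of all tested genes, and Ly6a was at -0.19 on the log2 scale (adjusted p = 0.0332), short of the fold threshold. The median log2 fold change was 0.93. Their sum, in which Gsn was the most abundant gene, was 2200.0, 2472, 2335 and 3510.3 CPM in controls 1 to 4 and 4675, 5237, 4645 and 4113 CPM in mutants 1 to 4. Control 4, the highest control in collagen, was also the highest control here. The mutants differed in this, with mouse 1 highest in collagen and mouse 2 highest in the fibroblast sum. Tendon cell markers rose in 7 of 8 genes, all but Chad, with a median of 1.15, and their sum, led by Thbs4, was 1203, 613, 721 and 1188 CPM in controls and 4134, 3594, 3215 and 3218 CPM in mutants. Thbs4 carried most of that difference, and without it, a sum added after the data were seen, the other 7 genes held 715, 357, 419.7 and 768 CPM in controls and 1392, 1236, 1008 and 1081 CPM in mutants. Macrophage markers rose in all 7 genes, with a median of 1.20, and their sum, led by Csf1r, was 76.4, 78.7, 72.8 and 135 CPM in controls and 296, 223, 217 and 179 CPM in mutants. Mutant 1 was the highest mutant in the tendon and macrophage sums. The highest control was control 1 in the tendon sum and control 4 in the macrophage sum. No mutant overlapped with a control in the fibroblast, tendon and macrophage sums, and none of the markers of these 3 lists was at 0. For weighing, the study left the calcaneal tendon on the soleus, and whether it was removed before RNA extraction is not given in the sources used here. The part of these cells and of tendon in the differences of the collagen chain genes was not tested.

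Cells of vessels, which make collagen IV, showed lower sums. Endothelial markers, led by Cdh5, summed to 1006, 992, 1036 and 998 CPM in controls and 699.7, 774, 813 and 785 CPM in mutants. Of the 7 genes, 1, Kdr, fell, against 7.85% of all tested genes, and the median log2 fold change was -0.40. In 6 of the 7, all but Cldn5, every mutant was below every control, against 20.5% of all tested genes. Pericyte and smooth muscle markers, led by Rgs5, summed to 1696, 1824, 1802 and 1656 CPM in controls and 1205, 1409.9, 1434 and 1382 CPM in mutants, and Acta2 and Myh11 fell among 7. Of the same list, Cspg4 and Pdgfrb had positive log2 fold changes of 0.56 (adjusted p = 0.0141) and 0.16 (adjusted p = 0.221) and were not called. In both sums every mutant was below every control, and their part in the values of Col4a1 and Col4a2 was not tested. Schwann cell markers, led by Pmp22, overlapped between genotypes, with 1 of 8 genes called higher, Ncam1, which muscle fibres can also express, a share close to the 12.9% of all tested genes. Mbp, a myelin protein gene, was below the controls in every mutant, as were 20.5% of all tested genes. Its log2 fold change of -0.24 (adjusted p = 0.0141) was short of the fold threshold. Scaling by library size alone moves the median of all genes to 0.22, about the size of this difference. Satellite cell markers fell in 3 of 4 genes, Pax7, Myf5 and Calcr, of which Calcr passed the filter only through the controls, while their sum, led by Sdc4, overlapped at 52.05, 84.8, 86.00 and 64.1 CPM in controls and 62.2, 40.95, 38.04 and 64.7 CPM in mutants. The 4 adipocyte markers, led by Cfd, were not called. Of the 4 epidermal markers Krt5 and Krt1 were at 0 in all mice, Krt14 was under the filter and Krt10 was not called, and of the 6 cartilage markers 4 were tested and none was called.

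The tissue carried the genes of slow muscle in every mouse. Myh7, a slow fibre marker, held 6014 ± 263 CPM in controls and 4193 ± 391 CPM in Dnm2 +/K562E mice (SD, n = 4 each). The sum of 7 slow and general muscle fibre genes, led by Acta1, was 43413, 47929.8, 52130.5 and 46151 CPM in controls 1 to 4 and 28627, 32852, 33722 and 29472 CPM in mutants 1 to 4. Tnnc1, Myl2 and Ckm fell, against 7.85% of all tested genes, and all 4 mutant sums were below the controls. The other 4 genes were not called. Of these, Myh7, Tnnt1 and Acta1 had log2 fold changes of -0.52, -0.48 and -0.52, short of the fold threshold. Tnni1, at -0.15, overlapped between genotypes. The TMM scaling factors of the libraries lay between 0.915 and 0.959 for controls and between 1.04 and 1.10 for mutants, so scaling shifts mutants against controls.

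Single mice stood out among the collagen chain genes that rose. Of these 23 genes, control 4 was the highest control in 15, and Dnm2 +/K562E mouse 1 was the highest mutant in 19. Without control 4, 24 chains rose, and without mutant 1, 23 rose, and Col6a6 fell in both cases. The lowest mutants were spread over mice 2, 3 and 4, with 6, 7 and 10 of the 23 genes.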

How the data were processed

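Soleus RNA of 4 control and 4 Dnm2 +/K562E mice was sequenced. The authors deposited raw read counts per gene and mouse, made by trimming (Trimmomatic 0.33), alignment to GRCm38 (STAR 2.5.1b) and counting with featureCounts. Reads shared by overlapping genes were credited to every such gene, multi-mapping reads to their primary position, and whether strand was used is not given in the sources used here. Poly A selection is described in the methods, whereas the labels name a total RNA kit. Total counts per mouse ran from 33407430 to 48832814.

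Symbols, positions and exon lengths came from GENCODE M21 (22647 of 22880 gene IDs matched). Genes were filtered with filterByExpr (minimum count 10, minimum total 15), normalized by TMM and tested with the quasi-likelihood F-test of edgeR 4.0.16 in R 4.3.3 with Benjamini-Hochberg adjustment over 14001 genes. Standard errors are those implied by the F statistic. A call required an adjusted p under 0.05 with an absolute log2 fold change no smaller than 0.58. CPM were normalized by the library size multiplied by its TMM factor, and RPKM divide these by exon length. Chain ratios used counts with 0.5 added and exact two-sided permutation tests (scipy 1.17.1). Between any 2 mice of a genotype the chi-square of the counts was at least 12.6 per degree of freedom, so all 8 were treated as separate replicates. The fit was tested on simulated data.

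Values in every mouse are given for the 3 members of each class with the highest mean RPKM, members that fell, the called member with the largest absolute log2 fold change in each class, and Col18a1, Loxl2, Dnm2 and, in part, Col9a1, which were picked with their values in view. The members, lists and ratios were chosen with earlier results of these data known, and collagen classes follow general knowledge. Mice are different animals, so no block was used, and the same numbers in titles or descriptions showed no common pairing: the correlation of their deviations averaged -0.11 and -0.03. Also tried were DESeq2 1.42.0, edgeR's exact test, scaling by median ratios or by library size alone, no filter, at least 10 counts in every mouse, both blocks, a surrogate variable (sva 3.50.0), a length and GC correction (mgcv 1.9.3), calls without a fold threshold, other prior counts in the ratios, leaving out each mouse and, added after the data were seen, coding length.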

Additional observations from a re-analysis of the deposited data

Results flagged for a closer look

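In 11 of 110 groups of 4 mice, a single mouse lay far from the other 3, measured by its gap to the nearest of them over the whole range. Chance gives this in about 1 in 20 groups. In controls, mouse 4 was high in Col18a1, with 48.3 CPM against 41.8 to 42.3 in the others, and in Col6a1, with 277.9 CPM against 204.8 to 209.0. Control 1 was high in the log2 ratio of Col11a1 to Col5a1, at -0.73 against -1.84 to -1.67, and low in that of Col6a3 to Col6a1, at -1.01 against -0.66 to -0.62. Dnm2 +/K562E mouse 1 was high in Col6a3, with 381.4 CPM against 279.2 to 295.7, and in the log2 ratio of Col4a5 to Col4a1, at -5.41 against -5.62 to -5.59. Mutant 2 was high in Col10a1, with 1.19 CPM against 0.644 to 0.706. Mutant 3 was high in Col4a3, with 3.79 CPM against 2.62 to 2.70, and low in Col11a2, with 29.0 CPM against 39.1 to 40.5. The same mouse was low in the log2 ratio of Col5a2 to Col5a1, at 0.47 against 0.53 to 0.54, and high in that of Col6a1 to Col1a1, at -1.23 against -1.40 to -1.38.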

How the results depend on the processing

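Under the 19 alternatives run for the calls, 22 to 25 collagen chain genes rose. At least 10 counts in every mouse left 36 chains and 22 that rose, and library size alone gave 25, adding Col8a2 and Col26a1. Col6a6 fell under each of them, and DESeq2 called 2 chains lower, Col6a6 and Col9a1, which was under the filter of the edgeR test. With library size alone the median of the collagen chain genes was 1.09 and that of all genes 0.22. Leaving out a mouse gave 23 to 24 chains that rose and medians of 0.78 to 0.91. Col8a2 passed without control 4 (0.73) and without mutant 2 (0.70), and the Col10a1 value ran from 4.25 to 6.05, the latter without control 4. Signs turned for chains that were not called. With library size alone Col4a1, Col4a3 and Col4a6 became 0.15, 0.05 and 0.10. Leaving out control 1 turned Col15a1 (-0.01) and Col5a3 (-0.05), leaving out control 2 turned Col4a6 (0.53), and leaving out control 3 turned Col4a1 (0.03) and Col7a1 (-0.04). Col4a6 also turned under the surrogate variable (0.07) and under the replicate blocks by title (0.17) and description (0.11). For calls, the replicate block, by title or description numbers, gave 23 that rose and 1 that fell. Coding length moved 73 of 88 mean levels by more than 1 SD. With 4 mice per genotype an adjusted chain ratio can pass 0.05 only where most ratios separate completely.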
